A study of Mus musculus with 4 samples.

Results

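Chemokines that attract neutrophils and the receptors that read them were followed across the cells of transplanted mouse mammary tumours. The group consists of 7 listed genes, the chemokines Cxcl1, Cxcl2, Cxcl3, Cxcl5 and Cxcl12 and the receptors Cxcr2 and Cxcr4. All 7 were found by symbol among the 23635 genes listed in any of the 4 single-cell RNA libraries. The tumours were grown from Py8119, a mesenchymal mammary carcinoma line that goes back to a tumour of the MMTV-PyMT mouse. In 2 libraries, called Sema4d-shRNA 1 and 2, the tumour carried a short hairpin RNA against Sema4d, and in the 2 others, called NC 1 and NC 2, the genotype is given as control. Sema4d encodes a membrane-bound semaphorin, and the study concerned the Sema4d made by the tumour cells themselves. The labels give no host age, no number of animals behind a library and no number of shRNA clones. The p-values therefore measure the spread between these libraries only.

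CXCL1, CXCL2, CXCL3 and CXCL5 are closely related chemokines that carry an ELR motif and act on neutrophils through CXCR2, a receptor coupled to inhibitory G proteins. CXCL12 is the ligand of CXCR4, and the pair is known for holding neutrophils and their precursors in the bone marrow, while CXCR2 ligands draw them out into blood and tissue. In tumours these chemokines can come from cancer cells, macrophages, fibroblasts and neutrophils, and transcription of the CXCR2 ligands is known to depend on NF-kB.

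On the GRCm38 assembly with GENCODE M21 gene models, Cxcl5, Cxcl3, Cxcl1 and Cxcl2 lie in this order on the plus strand of chromosome 5, between 90759360 and 90905938, a stretch of 147 kb. Cxcl12 lies on chromosome 6 (117168535 to 117181367), Cxcr2 on chromosome 1 (74153989 to 74161246) and Cxcr4 on the minus strand of chromosome 1 (128588199 to 128592293). No annotated gene overlaps any of the 7. The promoters of the 3 CXCR2 ligands that carried most of the counts are shown because they share an NF-kB type sequence ahead of the gene start. They are RefSeq sequences of GRCm38.p6, plus strand, 150 bases before the RefSeq gene start, for Cxcl1 at chr5:90891095-90891244, Cxcl2 at chr5:90903749-90903898 and Cxcl3 at chr5:90785951-90786100. The first run of capitals in each marks GGGAATTTCC, the first 10 bases of GGGAATTTCCC, which is the longest run that all 3 share. The second marks the TATA type sequence ATAAAAG.
Cxcl1: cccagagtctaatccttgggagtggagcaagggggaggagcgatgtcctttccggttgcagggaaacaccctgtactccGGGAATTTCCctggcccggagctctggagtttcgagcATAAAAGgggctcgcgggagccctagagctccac
Cxcl2: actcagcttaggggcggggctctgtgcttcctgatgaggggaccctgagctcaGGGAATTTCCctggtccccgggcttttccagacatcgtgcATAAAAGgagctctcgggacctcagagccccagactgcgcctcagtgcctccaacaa
Cxcl3: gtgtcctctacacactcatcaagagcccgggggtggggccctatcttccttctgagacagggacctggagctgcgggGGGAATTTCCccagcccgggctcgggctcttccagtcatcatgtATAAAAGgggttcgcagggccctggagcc

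GGGAATTTCC began at position -71 relative to the RefSeq gene start in Cxcl1, at -97 in Cxcl2 and at -73 in Cxcl3, with 27, 30 and 34 bases between it and ATAAAAG. The GENCODE gene starts differ, at 90891241 for Cxcl1, 90903871 for Cxcl2 and 90786103 for Cxcl3. The printed stretches of Cxcl1 and Cxcl2 run past them, and the positions depend on the start used. Read on both strands over 250 bases before to 50 bases after the gene start, GGGAATTTCC or its complement GGAAATTCCC stood in 29 of 32851 mouse promoters, which is 0.0883%. The letters were taken from the promoters of Cxcl1, Cxcl2 and Cxcl3, so their presence in those 3 was fixed in advance. With 2 free bases, as GGGNNTTTCC or GGAAANNCCC, the share was 1.63%, and the same 3 members held it among the 6 members with a sequence in the table. ATAAAAG or CTTTTAT stood in 5.42% of promoters and in 4 of these 6, the fourth being Cxcr4. No match in the windows of Cxcl12, Cxcr2 and Cxcr4 says only that the letters GGGAATTTCC are not in those 300 bases. Cxcl2 and Cxcl3 also share a run of 157 identical transcript bases, longer than the 100-base read, so reads from it cannot be assigned to either gene. It ends 1849 bases before the end of the 2066-base Cxcl2 transcript and 3285 bases before the end of the 3498-base Cxcl3 transcript. Between all other pairs of members the longest shared run was 23 bases or less.

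The 4 libraries held 10575 and 13173 cells (Sema4d-shRNA 1 and 2) and 10874 and 10598 cells (NC 1 and 2), with 83513906 to 119758159 unique molecular identifiers (UMIs, each counting a captured transcript) and a median of 5716 to 8212 per cell. After filtering, 42359 cells remained. Those in named clusters were sorted into 8 classes from marker genes, with the 7 members left out of clustering and naming. Cells of unnamed clusters had no class, 248 and 401 in the Sema4d-shRNA libraries and 1635 and 942 in the NC libraries. They count in the total behind the tumour-like and macrophage or monocyte-like shares given next. Their part in the difference of these shares between groups was not tested. Tumour-like cells made up 73.3% and 67.9% of the Sema4d-shRNA libraries, against 46.7% and 47.4% of the NC libraries. The share of macrophage or monocyte-like cells was 17.5% and 17.6%, against 30.6% and 38.4%. Sema4d itself stood at 3.86 and 5.50 CPM (UMIs of the gene scaled to one common total of UMIs) in tumour-like cells of the Sema4d-shRNA libraries and at 6.54 and 7.38 CPM in those of the NC libraries (edgeR log2 change -0.51 ± 0.18 SE, adjusted p = 0.345). The groups did not overlap, in the direction of the labels, but the difference did not pass the test across all genes. Sema4d was also lower without overlap in T and NK-like cells, at 161 and 167 CPM, against 224 and 222 CPM (edgeR adjusted p = 0.356). In dendritic-like cells it was 37.2 and 33.1 CPM, against 78.8 and 69.9 CPM (edgeR adjusted p = 0.999). In macrophage or monocyte-like and in neutrophil-like cells the groups overlapped. The Sema4d effect in macrophage or monocyte-like cells exceeded that in tumour-like cells by 0.69 on the log2 scale (edgeR interaction test, adjusted p = 0.0100). That test called 2.64% of 14919 genes. The part of host cell RNA in the tumour-like values was not tested. Libraries shared 756 to 3782 cell names in pairs, which are droplet numbers, and no shared name had the same UMI total in both.

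Neutrophil-like cells were few, and several of the values below rest on them. They numbered 27 and 15 in the Sema4d-shRNA libraries and 60 and 28 in the NC libraries, which is 0.273% and 0.122% of cells, against 0.589% and 0.282%. The exact 95% intervals run from 0.180% to 0.396% and from 0.0681% to 0.201% for the Sema4d-shRNA libraries, and from 0.450% to 0.757% and from 0.187% to 0.407% for the NC libraries. Intervals here and below cover counting error only. The 2 groups of shares did not overlap, and the edgeR test of cell numbers gave a log2 change of -1.15 with an adjusted p of 0.287. Among immune-like cells alone the shares were 1.17% and 0.450%, against 1.64% and 0.662%, and these overlapped. The 14 neutrophil markers summed to 15710 and 10796 CPM in these cells of the Sema4d-shRNA libraries, against 26326 and 25956 CPM in those of the NC libraries. Among them S100a8 and S100a9, whose products pair as calprotectin, were the strongest, with S100a9 at 7410 and 4438 CPM against 11229 and 12068 CPM. Ly6g, the classical surface marker, was at 0 in all libraries but NC 2, where it reached 12.6 CPM. The summed tumour markers reached 70.0% and 52.0% of their tumour-like level in the neutrophil-like cells of the Sema4d-shRNA libraries, against 57.3% and 47.3% in those of the NC libraries. The part that this material had in the neutrophil-like values was not tested.

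The 7 genes divided by cell class. Tumour-like cells held most UMIs of Cxcl1, Cxcl12 and the very rare Cxcl5, macrophage or monocyte-like cells held most of Cxcl2 and Cxcr4, and neutrophil-like cells held large parts of Cxcl3 and Cxcr2 although they gave only 0.0596% to 0.182% of all UMIs. Of Cxcl1, 97.9% and 96.2% of UMIs lay in tumour-like cells of the Sema4d-shRNA libraries, against 91.0% and 91.7% in the NC libraries. Of Cxcl2, 71.9% and 81.1% lay in macrophage or monocyte-like cells, against 72.2% and 81.8%. Of Cxcr2, 70.6% and 34.5% lay in neutrophil-like cells, against 73.8% and 68.6%, and in Sema4d-shRNA 2, the low library here, these were 10 of 29 UMIs.

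**Figure D1:**
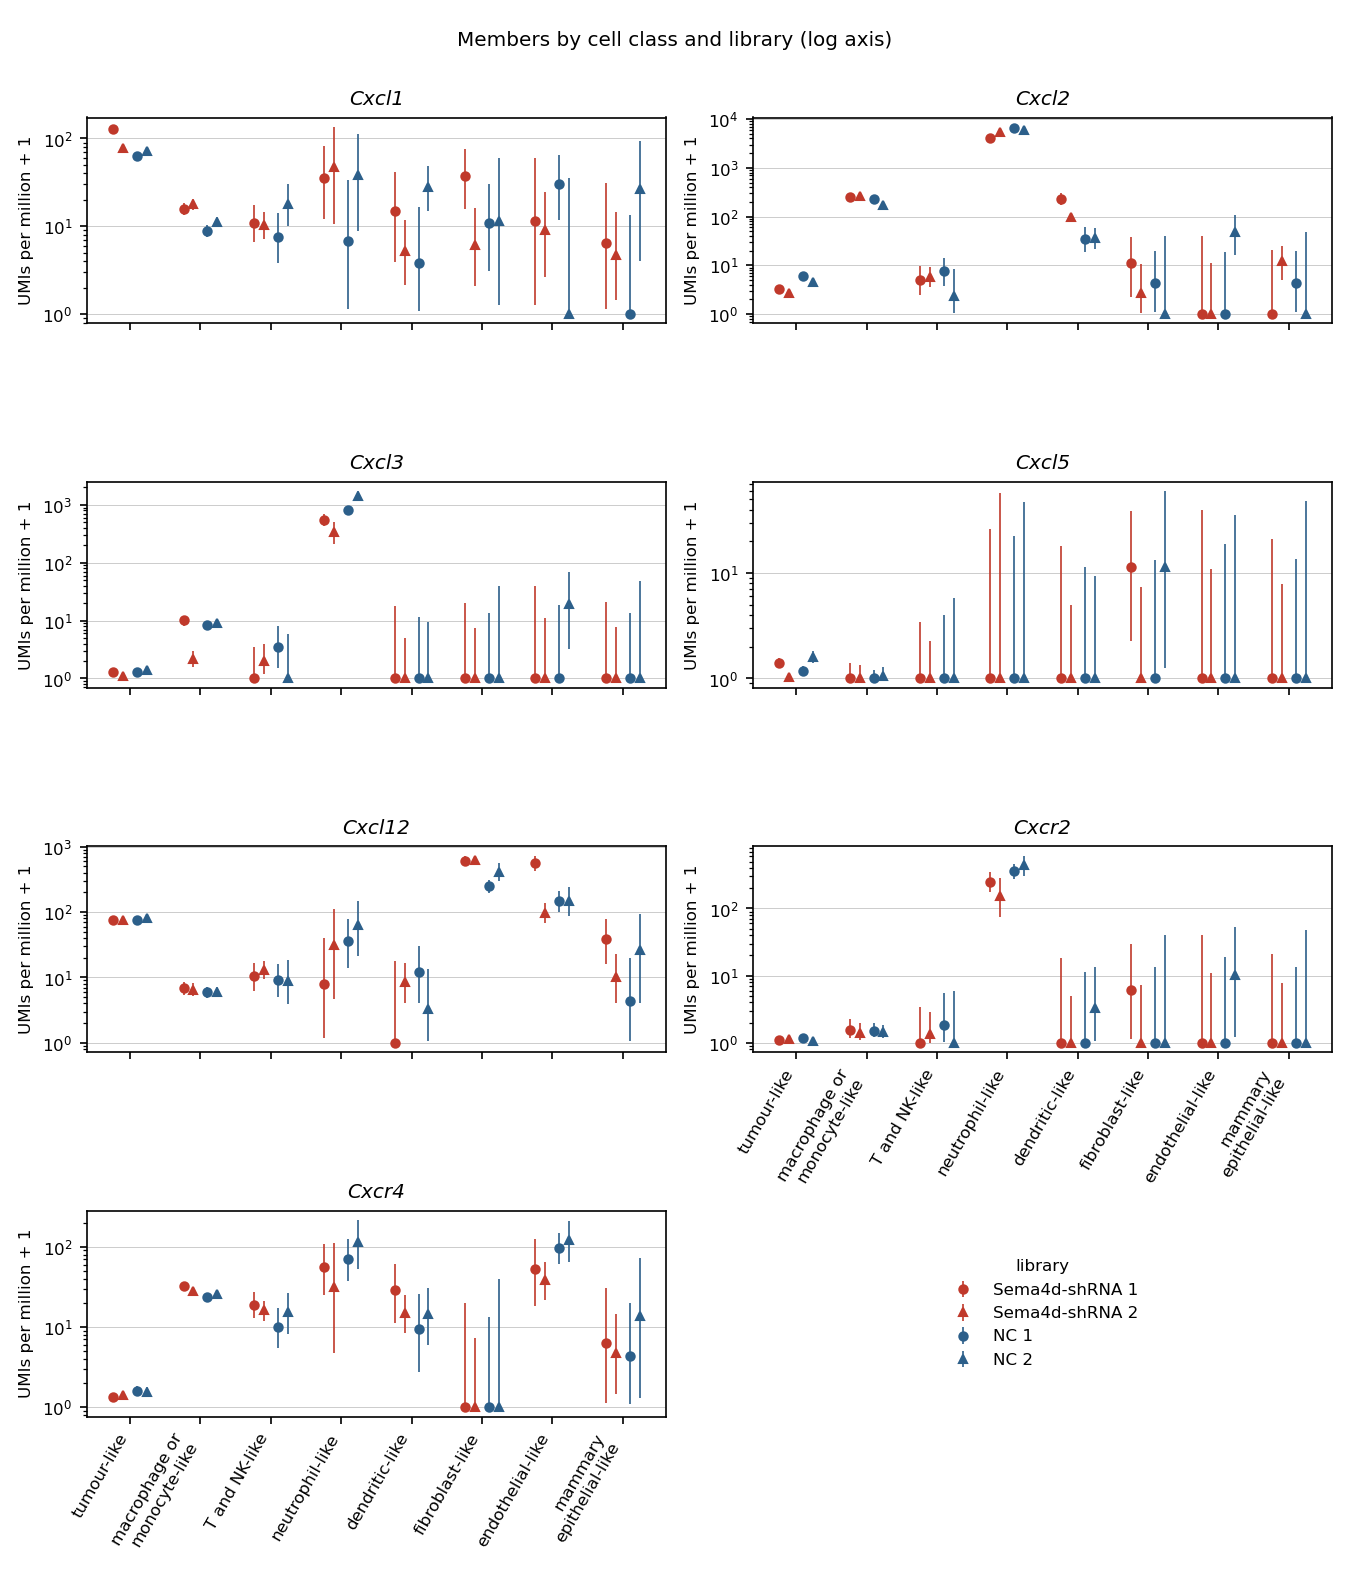
Level of each of the 7 genes in 8 cell classes (horizontal) on a logarithmic axis of CPM plus 1 (vertical), with 1 point for each of the 4 libraries, Sema4d-shRNA left of NC, and bars for exact 95% counting intervals. Cxcl2, Cxcl3 and Cxcr2 are highest in neutrophil-like cells, where Cxcl2 reaches 4167 to 6533 CPM, and Cxcl12 is highest in fibroblast-like cells in every library.

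The plot of levels by class and library shows the same division as levels in CPM rather than as totals. The bars are wide for the neutrophil, endothelial and mammary epithelial-like classes, each of which held 68 cells or fewer in every library.

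**Figure D2:**
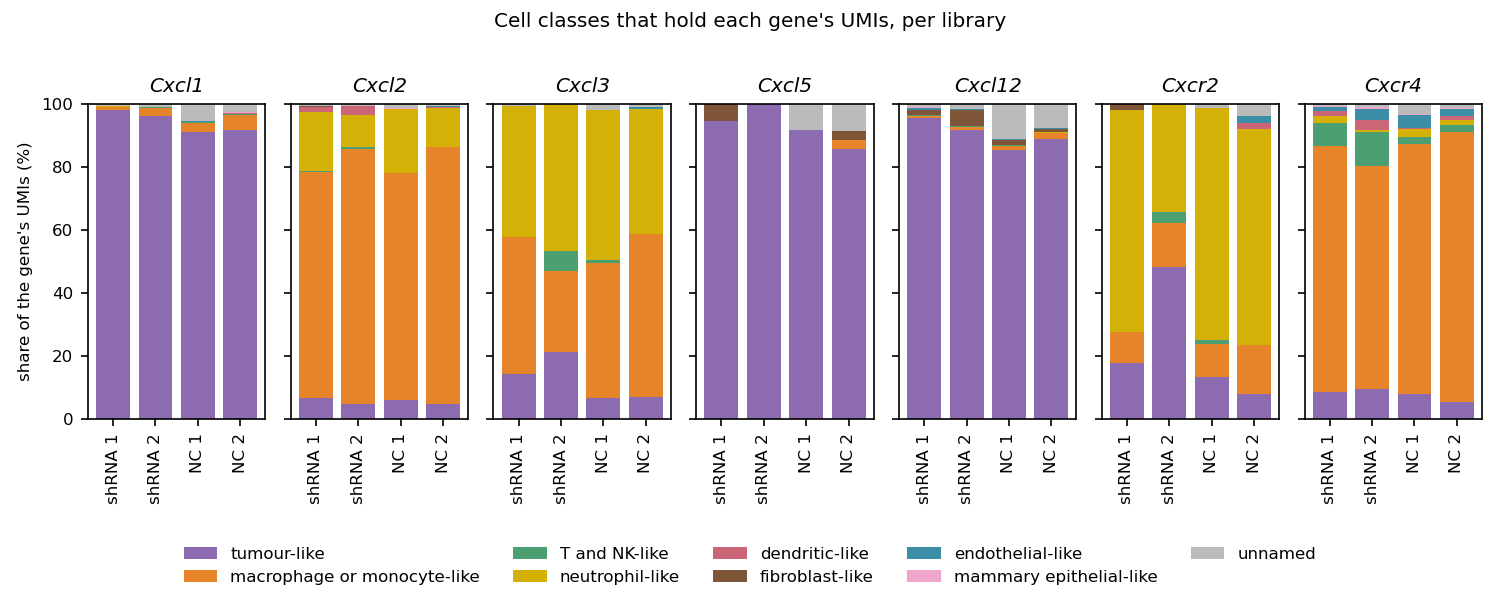
Share of the UMIs of each gene (vertical, percent) that came from each cell class, as stacked bars for every library (horizontal), Sema4d-shRNA left of NC. Tumour-like cells supply 91.0% or more of Cxcl1 in every library, and macrophage or monocyte-like cells supply 71.9% or more of Cxcl2.

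The stacked shares depend on how many cells of a class a library holds as well as on the level in each cell. They are therefore read beside the levels within each class that follow.

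Cxcl1, a CXCR2 ligand, was a tumour cell chemokine in these samples. In tumour-like cells it stood at 129 and 77.9 CPM in the Sema4d-shRNA libraries and at 62.9 and 70.6 CPM in the NC libraries. Both Sema4d-shRNA libraries were above both NC libraries, with Sema4d-shRNA 1 far above the other 3. The log2 change was 0.68 ± 0.27 (SE, 2 libraries a group) with an edgeR adjusted p of 0.464, so the difference did not pass the test. It was 0.29 without Sema4d-shRNA 1 (edgeR adjusted p = 0.134) and 0.99 without Sema4d-shRNA 2 (edgeR adjusted p = 1.46e-07). A UMI of Cxcl1 was found in 35.3% and 25.7% of tumour-like cells, against 25.4% and 22.4%. Expression was uneven between cells: the top 1% of tumour-like cells held 25.8% and 23.8% of the Cxcl1 UMIs, against 25.6% and 28.5%, and single cells held up to 107 UMIs.

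Within the tumour-like cells, Cxcl1 was highest in every library in a secretory state, a cluster led by Lcn2 (lipocalin-2, which binds bacterial siderophores), Hsd11b1, Enpp2, C3 (complement component C3) and Slpi (a protease inhibitor of secretions). There it stood at 410 and 296 CPM in the Sema4d-shRNA libraries and at 376 and 336 CPM in the NC libraries. The groups overlapped, and the log2 change within this state was 0.01 ± 0.14 (edgeR adjusted p = 0.995). Tumour-like clusters that matched no list of state markers had no state name, and held 17.4% and 17.5% of tumour-like cells in the Sema4d-shRNA libraries, against 39.0% and 41.8% in the NC libraries. Among the 7 named states the next in order was the interferon state in 3 libraries, at 176 CPM in Sema4d-shRNA 1, 110 CPM in NC 1 and 136 CPM in NC 2, and the immediate early state in Sema4d-shRNA 2, at 122 CPM. The lowest named state was the Ankrd1 and keratin state, with 36.3 and 49.7 CPM, against 18.1 and 36.9 CPM. A cluster with no state name, led by Mgp and Gas1, stood at 225 and 135 CPM, against 102 and 118 CPM, above every named state but the secretory one in both Sema4d-shRNA libraries. The states were made from the expression of the same cells, so the order between states is a description.

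The number of cells in the secretory state differed by library more than the level in it. It held 18.4% and 2.32% of tumour-like cells in the Sema4d-shRNA libraries, against 2.44% and 2.97% in the NC libraries. Sema4d-shRNA 1 stood apart, and there 46.0% of all tumour-like Cxcl1 UMIs came from this state, against 8.96% in Sema4d-shRNA 2 and 12.2% and 11.2% in the NC libraries. Without the secretory state, Cxcl1 in tumour-like cells was 81.3 and 72.6 CPM, against 56.4 and 64.1 CPM, and the groups still did not overlap. With every library weighted to the same mix of tumour clusters it was 106.2 and 85.2 CPM, against 70.3 and 78.0 CPM, a log2 ratio of 0.37 where the unweighted ratio was 0.63.

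In 2 tumour states the Cxcl1 difference passed the test. In cycling cells it was 51.0 and 55.2 CPM in the Sema4d-shRNA libraries and 33.8 and 40.1 CPM in the NC libraries, and the groups did not overlap. The log2 change was 0.58 ± 0.10 with an edgeR adjusted p of 0.0152. Of the 5 members tested in cycling cells this was the only call, where 0.569% of 12647 genes passed. It did not pass without NC 1 (adjusted p = 0.461) or without NC 2 (adjusted p = 0.103), with edgeR in each case.

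In the immediate early state, a cluster led by Btg2, Fos, Ier2 and Egr1, genes that cells switch on soon after a stimulus, Cxcl1 was 93.9 and 122 CPM in the Sema4d-shRNA libraries and 67.2 and 72.1 CPM in the NC libraries. These too did not overlap, and the log2 change was 0.70 ± 0.15 with an edgeR adjusted p of 0.00871. This was the only call among 3 members tested there, where 0.609% of 9518 genes passed. It did not pass without NC 1, NC 2 or Sema4d-shRNA 2, with edgeR adjusted p of 0.246, 0.148 and 0.257. In the Slurp1 and Ly6 state the values were 121 and 68.9 CPM, against 47.2 and 58.2 CPM (log2 change 0.93 ± 0.21, edgeR adjusted p = 0.137). No member was called there, in the interferon, stress or hypoxia, secretory or Ankrd1 and keratin states, where edgeR called 0.182%, 0.537%, 0.177%, 0.532% and 0.341% of genes. In the interferon and in the stress or hypoxia state the Cxcl1 values of the 2 groups overlapped.

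**Figure D3:**
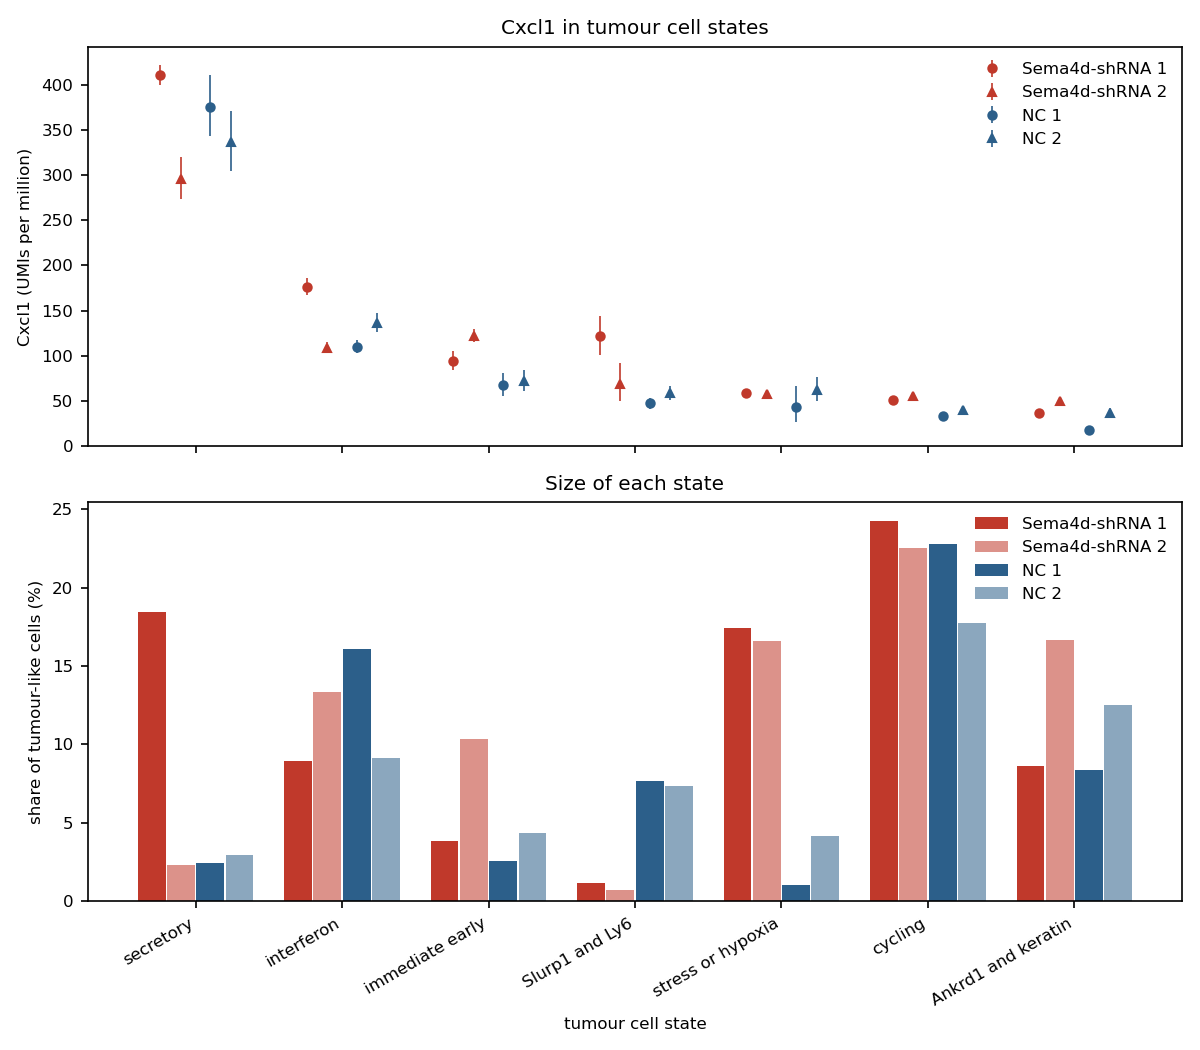
Top, Cxcl1 level in CPM (vertical) in 7 tumour cell states (horizontal) for each library, with exact 95% counting intervals. Bottom, the share of tumour-like cells in each state, in percent. Sema4d-shRNA is left of NC. The secretory state has the highest level in every library, 296 to 410 CPM, and holds 18.4% of tumour-like cells in Sema4d-shRNA 1 but 2.32% to 2.97% in the other libraries.

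The plot of Cxcl1 by state sets level and abundance side by side. The tall bar of the secretory state in Sema4d-shRNA 1 in the lower panel is the library difference described above, and the upper panel shows the overlap of the groups within that state.

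Outside tumour-like cells, Cxcl1 was lower in every library. The next class was fibroblast-like in Sema4d-shRNA 1 (36.3 CPM), endothelial-like in NC 1 (29.0 CPM) and neutrophil-like in Sema4d-shRNA 2 and NC 2 (46.1 and 37.7 CPM). Among neutrophil-like cells 4 of 27 and 1 of 15 had a UMI of Cxcl1, against 1 of 60 and 3 of 28. The part of the tumour markers given above for these cells was not tested. The macrophage or monocyte-like class had 14.7 and 16.9 CPM in the Sema4d-shRNA libraries and 7.80 and 10.1 CPM in the NC libraries, which did not overlap. The log2 change was 0.89 ± 0.17 with an unadjusted p of 0.000256 and an edgeR adjusted p of 0.0818. These levels were 11.4% and 21.7% of the tumour-like level, against 12.4% and 14.4%, and the summed tumour markers stood in the same cells at 10.0% and 7.16% of their tumour-like level, against 7.18% and 5.54%. The part that tumour cell RNA had in the macrophage Cxcl1 was not tested.

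Cxcl2, another CXCR2 ligand and a product of activated macrophages and neutrophils, was highest in neutrophil-like cells, next in macrophage or monocyte-like cells and low in tumour-like cells. Summed over all cells of a library, it was the only one of the 7 genes called lower with the Sema4d shRNA. Cxcl2 over all cells stood at 30.9 and 30.8 CPM in the Sema4d-shRNA libraries and at 58.9 and 51.5 CPM in the NC libraries, without overlap. The log2 change was -0.78 ± 0.09 with an edgeR adjusted p of 0.0249. Lower calls made up 1.14% of the 16461 genes tested over all cells, and calls in either direction 1.26%. The call was lost without NC 1 (edgeR adjusted p = 0.0576) or NC 2 (0.102). In such whole-library sums, fewer cells of a type and less RNA per cell cannot be told apart, and macrophage or monocyte-like cells gave 8.85% and 9.52% of all UMIs in the Sema4d-shRNA libraries, against 18.6% and 24.4% in the NC libraries. With every library weighted to the same mix of classes, Cxcl2 was 47.6 and 49.2 CPM, against 47.5 and 37.2 CPM, a log2 ratio of 0.19 in place of -0.84.

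Within macrophage or monocyte-like cells, Cxcl2 stood the other way. It was 250.5 and 262 CPM in the Sema4d-shRNA libraries and 228 and 172 CPM in the NC libraries, and the groups did not overlap. The log2 change of 0.43 ± 0.14 had an unadjusted p of 0.00856 and an edgeR adjusted p of 0.273, so it was not called. None of the 5 members tested in these cells was called by edgeR, where 0.233% of 12450 genes were, and DESeq2 called none either. Unadjusted p was under 0.05 for 3 of them, Cxcl1, Cxcl2 and Cxcr4, and for 10.3% of all genes tested in these cells.

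The class held 5 clusters, named here by a leading gene. Among them Cxcl2 was highest in the Ly6c2 cluster, which carries markers of classical monocytes (Ly6c2, Plac8, Chil3), in every library. It had 927 and 780 CPM there in the Sema4d-shRNA libraries, against 650.5 and 646 CPM in the NC libraries, without overlap. The C1q cluster, of complement-producing macrophages, had 153 and 171 CPM, against 130 and 126 CPM, also without overlap. In the Mmp12, Slc8a1 and histone clusters the groups overlapped. In the Mmp12 cluster, for example, the values were 154 and 327 CPM, against 386 and 264 CPM. The mix of clusters differed by library, with the Ly6c2 cluster at 22.6% and 14.3% of the class, against 15.2% and 8.61%. With every library weighted to the same mix of these clusters, Cxcl2 was 234 and 253 CPM, against 229.6 and 200.4 CPM, a log2 ratio of 0.18 where the unweighted ratio was 0.36. The same weighting gave Cxcl1 a log2 ratio of 0.77 in place of 0.82.

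Neutrophil-like cells had 4167 and 5329 CPM of Cxcl2 in the Sema4d-shRNA libraries and 6533 and 6115 CPM in the NC libraries. A UMI was seen in 92.6% and 73.3% of them, against 81.7% and 89.3%, while T and NK-like cells, which should lack the gene, had a UMI in 0.625% and 1.28%, against 2.11% and 0.380%. The median depth was 1964 and 1274 UMIs a cell in neutrophil-like cells, against 1399.5 and 1233.5, and 2015.5 and 2142 in T and NK-like cells, against 2097.5 and 2068. The log2 change in neutrophil-like cells was -0.40 ± 0.27 (edgeR adjusted p = 0.653), and the groups did not overlap. Of 1679 genes tested in these cells edgeR called 0 (0.0%), with 177 at an unadjusted p under 0.05, and DESeq2 called 5. None of the 3 members tested there was called by either.

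Of the settings where Cxcl2 was tested, dendritic-like cells gave the largest fold difference. They had 232 and 97.2 CPM in the Sema4d-shRNA libraries, from 50 and 91 UMIs, and 33.8 and 36.1 CPM in the NC libraries, from 12 and 16 UMIs. The log2 change was 2.24 ± 0.45 with an unadjusted p of 0.000325 and an edgeR adjusted p of 0.171, where 0.0631% of 4751 genes were called. The 2 groups did not overlap. DESeq2 gave an adjusted p of 0.0420, edgeR without 1 library 0.0100 or less, and edgeR with clusters at resolution 2 a log2 change of 1.00 and 1.00 as adjusted p. Few cells carried the UMIs, 6 of 72 and 27 of 215, against 6 of 107 and 4 of 117, and in NC 2 a single cell held 13 of the 16. Summed macrophage markers were at 25.3% and 30.1% of their own class level in these cells, against 26.4% and 28.1%. Summed neutrophil markers were at 223 and 168 CPM in them, against 239 and 117 CPM, and both marker sums overlapped between the groups.

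In tumour-like cells Cxcl2 was 2.33 and 1.76 CPM in the Sema4d-shRNA libraries and 5.03 and 3.56 CPM in the NC libraries, without overlap (log2 change -1.02 ± 0.21, edgeR adjusted p = 0.103). In NC 1 a single tumour-like cell held 62 Cxcl2 UMIs, where the highest cell held 3 in NC 2 and 15 and 2 in the Sema4d-shRNA libraries. None of the 7 members was called in tumour-like cells by edgeR, where 0.478% of 14443 genes were, and Cxcl2 alone had an unadjusted p under 0.05, as did 11.4% of all genes tested. DESeq2 called 1, Cxcl2, with an adjusted p of 0.0109. These levels were 0.931% and 0.670% of those in macrophage or monocyte-like cells, against 2.21% and 2.06%. Summed macrophage markers stood in the same tumour-like cells at 0.554% and 0.608% of their own level, against 1.21% and 1.36%. The macrophage markers moved in the same direction and their part in the Cxcl2 difference was not tested.

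**Figure D4:**
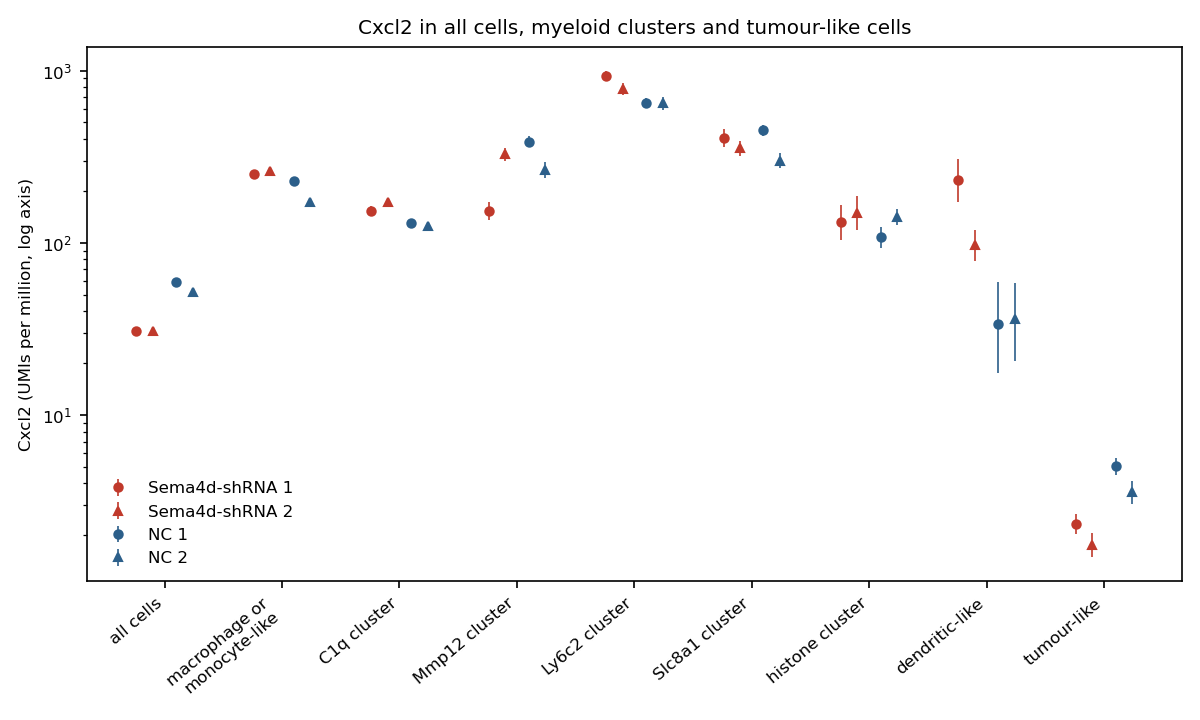
Cxcl2 level on a logarithmic axis of CPM (vertical) over all cells, in macrophage or monocyte-like cells and their 5 clusters, and in dendritic-like and tumour-like cells (horizontal), for each library with exact 95% counting intervals, Sema4d-shRNA left of NC. The Sema4d-shRNA points lie below the NC points over all cells (30.9 and 30.8 against 58.9 and 51.5 CPM) and in tumour-like cells, and above them in macrophage or monocyte-like and dendritic-like cells.

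The plot of Cxcl2 shows the opposite directions of the whole-library sum and of the macrophage class within it. The difference between the macrophage and tumour effects was tested directly, as an interaction with library as a block. For Cxcl2 it was 1.46 ± 0.14 on the log2 scale with an edgeR adjusted p of 9.32e-06. It was the only call among 7 members, where 2.64% of 14919 genes were called. It passed without each library in turn, with log2 values of 1.29 to 1.64.

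Cxcl3, the third ligand with the shared promoter sequence, was highest per UMI in neutrophil-like cells. They held 41.9% and 46.8% of its UMIs in the Sema4d-shRNA libraries, against 47.5% and 39.6% in the NC libraries, and macrophage or monocyte-like cells held 43.5% and 25.5%, against 43.1% and 51.7%. Neutrophil-like cells had 552 and 338 CPM in the Sema4d-shRNA libraries and 822 and 1432 CPM in the NC libraries, from 80 and 22 UMIs against 141 and 114. The groups did not overlap, and the log2 change of -1.28 ± 0.40 had an unadjusted p of 0.00715 and an edgeR adjusted p of 0.281. The summed neutrophil markers of these cells, given above, were lower in the same libraries, and their part in the Cxcl3 values was not tested. The macrophage or monocyte-like class had 9.05 and 1.15 CPM, against 7.29 and 7.95 CPM, where the groups overlapped and Sema4d-shRNA 2 was the low library. As for Cxcl2, the Ly6c2 cluster was among the highest in this class, at 46.2 and 2.37 CPM, against 57.4 and 38.6 CPM. No UMI of Cxcl3 was seen in dendritic, fibroblast or mammary epithelial-like cells. In dendritic-like cells a count of 0 allows up to 13.9 and 3.20 CPM, against 8.44 and 6.77 CPM. Over all cells the level was 1.84 and 0.430 CPM, against 3.16 and 3.75 CPM (log2 change -1.55 ± 0.69, edgeR adjusted p = 0.276).

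Cxcl5, an epithelial and stromal CXCR2 ligand in many tissues, was close to absent. All cells together gave 38 and 3 UMIs in the Sema4d-shRNA libraries and 12 and 35 in the NC libraries. The secretory tumour state held 33 and 2 of these, against 1 and 17, and the cluster led by Mgp and Gas1 held 1 and 1, against 6 and 10. The groups overlapped, and over tumour-like cells the log2 change was -0.72 ± 1.15 (edgeR adjusted p = 0.873). Neutrophil-like cells gave no UMI, which allows up to 20.7 and 46.1 CPM, against 17.5 and 37.7 CPM.

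Cxcl12, the ligand of Cxcr4, had the smallest log2 change and the smallest standard error of the 7 genes in tumour-like cells. It was 73.2 and 74.6 CPM in the Sema4d-shRNA libraries and 74.1 and 79.4 CPM in the NC libraries, and a UMI was found in 44.0% and 40.3% of cells, against 43.8% and 40.1%. The groups overlapped and the log2 change was 0.00 ± 0.08 (edgeR adjusted p = 0.992). Among the 7 named tumour states it was highest in the secretory state in Sema4d-shRNA 1, NC 1 and NC 2, at 112, 140 and 105 CPM, and in the immediate early state in Sema4d-shRNA 2, at 94.8 CPM. Clusters with no state name reached more in 3 libraries, 122 and 142 CPM in the Sema4d-shRNA libraries and 128 CPM in NC 2. The lowest in every library was the Slurp1 and Ly6 state, with 15.1 and 10.7 CPM, against 13.8 and 13.2 CPM. Cells of that state thus carried Cxcl1 at a level within the range of the other states and little Cxcl12.

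Stromal cells carried Cxcl12 at a higher CPM than tumour-like cells. Fibroblast-like cells had 602 and 621 CPM in the Sema4d-shRNA libraries and 247 and 411 CPM in the NC libraries, from 116 and 361 UMIs against 74 and 39. The groups did not overlap, with a log2 change of 0.95 ± 0.33, an unadjusted p of 0.0117 and an edgeR adjusted p of 0.809. Tumour markers summed to 104% and 67.9% of their tumour-like level in these cells, against 125% and 78.6%, so the fibroblast-like class was not told apart from tumour cells by those markers. Fibroblast markers, which named the class, summed in tumour-like cells to 0.795% and 0.313% of their fibroblast-like level, against 0.726% and 0.570%. Endothelial-like cells had 556 and 97.2 CPM, against 145 and 149 CPM, where the groups overlapped and the high library, Sema4d-shRNA 1, had 53 UMIs in 16 cells. No member was called in either class, where edgeR called 0.162% of 3095 and 0.162% of 2468 genes. Over all cells Cxcl12 was 67.3 and 68.1 CPM, against 59.5 and 60.1 CPM (log2 change 0.24 ± 0.07, edgeR adjusted p = 0.124), without overlap.

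Cxcr2, the receptor of the CXCL1 family, marked the neutrophil-like cells. It stood there at 248 and 154 CPM in the Sema4d-shRNA libraries and at 362 and 440 CPM in the NC libraries, from 36 and 10 UMIs against 62 and 35. In Sema4d-shRNA 2 a single cell held 9 of the 10. A UMI was seen in 14 of 27 and 2 of 15 of these cells, against 30 of 60 and 17 of 28, and in 0.124% and 0.167% of tumour-like cells, against 0.231% and 0.0636%. The levels did not overlap, and the log2 change of -0.91 ± 0.38 had an unadjusted p of 0.0330 and an edgeR adjusted p of 0.410. The summed neutrophil markers were lower in the same libraries here too. The macrophage or monocyte-like class had 0.545 and 0.384 CPM, against 0.513 and 0.427 CPM. Over all cells Cxcr2 was 0.492 and 0.265 CPM, against 0.892 and 0.665 CPM (log2 change -0.99 ± 0.38, edgeR adjusted p = 0.191). With every library weighted to the same mix of classes, the Cxcr2 log2 ratio was -0.70 in place of -1.04.

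Cxcr4, the receptor of CXCL12, was spread over leukocytes and endothelium and almost missing from the tumour cells that made its ligand. Tumour-like cells had 0.341 and 0.415 CPM in the Sema4d-shRNA libraries and 0.606 and 0.544 CPM in the NC libraries. Neutrophil-like cells had 55.2 and 30.7 CPM, against 70.0 and 113 CPM, without overlap. Few of them carried a UMI, 5 of 27 and 2 of 15, against 9 of 60 and 6 of 28. Cxcr4 was not among the members tested in neutrophil-like cells. The macrophage or monocyte-like class had 31.1 and 27.2 CPM, against 22.3 and 24.4 CPM, with no overlap (log2 change 0.39 ± 0.13, unadjusted p = 0.0113, edgeR adjusted p = 0.299). The Ly6c2 cluster was again the highest of the 5 macrophage clusters, at 90.4 and 73.4 CPM, against 51.6 and 73.7 CPM. With the same mix of macrophage clusters in every library, Cxcr4 was 27.7 and 26.5 CPM, against 22.9 and 29.5 CPM, which overlapped, with a log2 ratio of 0.05 in place of 0.32.

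Endothelial-like cells had 52.5 and 37.8 CPM of Cxcr4, against 96.8 and 121 CPM, from 5 and 14 UMIs against 20 and 13. These did not overlap, and the log2 change was -1.29 ± 0.51 with an edgeR adjusted p of 0.603. T and NK-like cells had 18.1 and 15.2 CPM, against 9.08 and 14.5 CPM (edgeR adjusted p = 0.940). None of the 3 members tested in T and NK-like cells was called, where 0.315% of 8576 genes were, and none of the 3 had an unadjusted p under 0.05. No Cxcr4 UMI was seen in fibroblast-like cells of any library. Over all cells Cxcr4 was 3.52 and 3.66 CPM, against 5.25 and 6.95 CPM (log2 change -0.70 ± 0.17, edgeR adjusted p = 0.0784), and with the same mix of classes in every library the log2 ratio was 0.19. As with Cxcl2, the whole-library sum and the macrophage class pointed in opposite directions. The difference between the macrophage and tumour effects was 0.96 on the log2 scale for Cxcr4 (edgeR adjusted p = 0.0843).

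**Figure D5:**
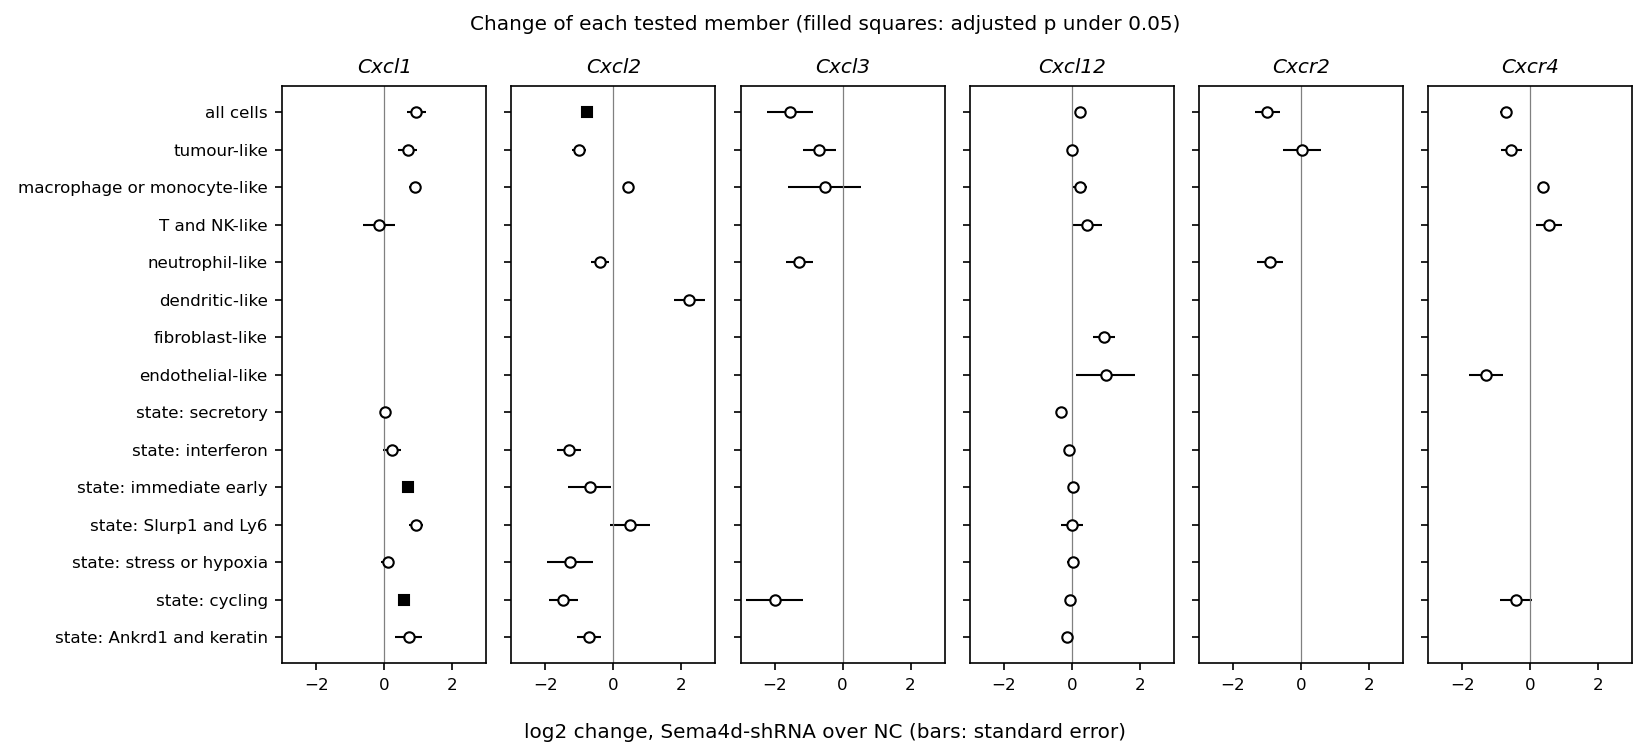
Log2 change of Sema4d-shRNA over NC with its standard error (horizontal) for 6 of the 7 genes in each class, state and the sum of all cells where it was tested (vertical). Filled squares mark edgeR adjusted p under 0.05. Only Cxcl2 over all cells and Cxcl1 in the cycling and immediate early states are filled.

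Members were tested 51 times in 15 settings, and the plot of effects shows these tests but for those of Cxcl5. Of the 51, 3 were called and 20 had an unadjusted p under 0.05, where 3.94% to 23.2% of all genes did by setting. Of the 20, 5 come from the sum of all cells, where the share was 23.2%. Cxcl1 lies to the right of 0 in every setting where it was tested but T and NK-like cells, where it was -0.16, and Cxcl12 lies between -0.30 and 0.05 in tumour-like cells and their states. The settings share cells, since each state is part of the tumour-like class and each class part of the sum. They are therefore not independent of each other.

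Genes that act around this axis were described as 5 lists. Of 24 listed genes for other neutrophil attractants and their receptors, 19 were tested in tumour-like cells. Of these 2 were called, both lower, where 0.478% of 14443 genes were called. C5ar1 (the receptor of complement C5a) fell to 1.02 and 1.29 CPM in the Sema4d-shRNA libraries, against 3.20 and 4.24 CPM in the NC libraries (log2 change -1.62, edgeR adjusted p = 0.0211). Pf4, a platelet and macrophage chemokine, fell to 3.96 and 3.02 CPM, against 7.62 and 10.3 CPM (edgeR adjusted p = 0.0376). The other 17 were not called, and the median log2 change of the list was -0.48, against 0.01 over all genes tested. C5ar1 in tumour-like cells was at 1.07% and 1.04% of its macrophage or monocyte-like level, against 2.28% and 2.70%, and Pf4 at 0.484% and 0.558%, against 1.10% and 1.17%. The summed macrophage markers in tumour-like cells differed by group as given above, and their part in both was not tested. In macrophage or monocyte-like cells 0 of 19 were called, with a median of 0.13 against 0.00 over all genes. There Ccl6, a CC chemokine of myeloid cells, was 2062 and 1405 CPM, against 1176 and 905 CPM (edgeR adjusted p = 0.263). In T and NK-like cells 0 of 11 and in neutrophil-like cells 0 of 10 were called, with medians of -0.27 and -0.20. Over all cells Ccl9 and Ccl3, both macrophage chemokines, were called lower among 23 tested, where 1.14% of 16461 genes were called lower. The list median there was -0.80, against 0.01 over all genes. Macrophage or monocyte-like cells gave a smaller share of UMIs in the Sema4d-shRNA libraries, as given above. Fewer cells of a type and less RNA per cell cannot be told apart in these sums. Ccl9 was 62.1 and 61.4 CPM, against 105 and 112 CPM (edgeR adjusted p = 0.0228), and Ccl3 was 23.3 and 26.7 CPM, against 40.1 and 46.0 CPM (edgeR adjusted p = 0.0458).

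Cytokines known to act upstream of these chemokines, 20 genes with Il1b, Tnf and Il17a among them, gave no edgeR call in the 4 classes where lists were read (tumour, macrophage or monocyte, T and NK and neutrophil-like cells) or over all cells. The medians were -0.06 for 19 tested in tumour-like cells, 0.41 for 14 in macrophage or monocyte-like cells, 0.06 for 9 in T and NK-like cells, -0.36 for 9 in neutrophil-like cells and 0.10 for 19 over all cells. Il1b in neutrophil-like cells was 1566 and 1044 CPM in the Sema4d-shRNA libraries and 2648 and 3114 CPM in the NC libraries, without overlap (log2 change -1.12, edgeR adjusted p = 0.200). Csf1, which sustains macrophages, was 184 and 181 CPM in tumour-like cells, against 176 and 173 CPM (edgeR adjusted p = 0.588).

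The NF-kB and mRNA decay list, with 23 genes found in the files, gave 2 calls in T and NK-like cells, both higher. All 23 were tested there, and 0.315% of all 8576 genes tested were called. Nfkbia, the inhibitor that NF-kB itself induces, was 379 and 393 CPM in the Sema4d-shRNA libraries, against 258 and 229 CPM in the NC libraries (edgeR adjusted p = 0.0139). Zfp36, a factor that speeds the decay of cytokine mRNA, was 189 and 209 CPM, against 130 and 130 CPM (edgeR adjusted p = 0.0473). The class mixes T and NK cells. At resolution 2 a cluster with NK genes among its leading genes (Klrb1c, Klra8) held 130 of 481 and 195 of 939 cells of the class. In the NC libraries it held 48 of 380 and 44 of 262. The part of this mix in both differences was not tested. In tumour-like and in macrophage or monocyte-like cells 0 of 23 and in neutrophil-like cells 0 of 7 were called, with medians of 0.02, 0.15 and -0.82. In tumour-like cells Nfkbia was 216 and 200 CPM, against 196 and 191 CPM (edgeR adjusted p = 0.477). Over all cells Nfkbiz was the only call of 23, at 16.9 and 16.2 CPM, against 24.3 and 24.9 CPM (edgeR adjusted p = 0.0474). By edgeR 1.26% of all genes were called in this sum, where cell numbers and RNA per cell cannot be told apart.

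Of 24 genes for CXCR2 and CXCR4 signalling and turnover, 22 were tested in T and NK-like cells, where 0.315% of 8576 genes were called. Rgs2, which shortens G protein signals, was the only call of the 22. It was 212 and 272 CPM in the Sema4d-shRNA libraries, against 124 and 141 CPM in the NC libraries (log2 change 0.92, edgeR adjusted p = 0.00396). The part that the mix of T and NK cells in this class had in the Rgs2 difference was not tested. None was called in tumour-like cells (24 tested, median -0.05), macrophage or monocyte-like cells (24 tested) or neutrophil-like cells (8 tested, median -0.21). Over all cells Adrbk1, the older symbol of the receptor kinase gene Grk2, was 27.8 and 27.6 CPM, against 39.0 and 40.6 CPM (edgeR adjusted p = 0.0479). It was the only call of 24 tested, where 1.26% of all genes were called. Cell numbers and RNA per cell cannot be told apart in this sum.

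Of 24 neutrophil adhesion and granule genes, 15 were tested in tumour-like cells, where 0.478% of 14443 genes were called. Itgam, the alpha chain of the integrin Mac-1 of myeloid cells, was the only call of the 15. It was 1.78 and 2.55 CPM in the Sema4d-shRNA libraries, against 5.06 and 5.93 CPM in the NC libraries (edgeR adjusted p = 0.0417). This was 0.552% and 0.652% of its macrophage or monocyte-like level, against 1.29% and 1.58%, beside macrophage markers at 0.554% and 0.608% of theirs, against 1.21% and 1.36%, and their part in the Itgam difference was not tested. None of 16 tested was called in macrophage or monocyte-like cells, none of 9 in T and NK-like cells and none of 9 in neutrophil-like cells, where the median was -1.06. Over all cells Ncf1, a subunit of the phagocyte NADPH oxidase, was the only call of 20, at 18.9 and 22.5 CPM, against 49.0 and 57.0 CPM (edgeR adjusted p = 0.0216). The share of all genes called there was 1.26%, and cell numbers and RNA per cell cannot be told apart in the sum.

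Genes whose levels ran most like each member were ranked over 32 sums, 8 classes in 4 libraries, among 11559 genes, by Pearson's r of log2(CPM + 1). The sums of a library share its depth, and sums of a class share its cell type. For Cxcl2 the nearest were Il1b (r = 0.96), Trem1 (0.96) and Nlrp3 (0.94), and for Cxcl3 Slfn4 (0.97), S100a8 (0.96) and Il1f9 (0.96). For Cxcr2 they were Il1f9 (0.98), Stfa2l1 (0.96) and Wfdc21 (0.95). For Cxcl12 they were Calu (0.93), Fkbp9 (0.91) and Csrp2 (0.91), and for Cxcr4 Abcg1 (0.94), Pde4b (0.88) and Litaf (0.87). Cxcl1 had no close match, with Cdh2, Nme2 and Htra2 each at 0.71. For the sparse Cxcl5 the nearest were Dio2 (0.91), Mrap (0.89) and Tmem178b (0.88). Of these, Trem1, Slfn4, S100a8 and Stfa2l1 also belong to the markers that named the neutrophil-like class.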

How the data were processed

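The deposited files hold raw UMI counts per gene symbol and cell, written by PISA 1.0 per the file headers. STAR 2.5.1b and the builds GRCh38 and mm10 are named in the submitters' processing notes. Neither the gene annotation nor the cell calling nor the use of strand is given there, so antisense and close copies are uncertain. Cells needed 300 genes or more and no more than 20% mitochondrial UMIs, which 45062 of 45220 met, and the 6% with the highest scrublet score in every library were left out as doublets, since scrublet's own threshold marked 0% to 1.51%. Counts were scaled to 10000 per cell, and 2000 variable genes, 30 components and 15 neighbours went into Leiden clustering (scanpy 1.11.5, igraph 0.11.9), with 20 clusters at resolution 1 for classes. States were clusters at resolution 2 within tumour-like cells, a choice made after resolution 1 had been seen. Clusters took their class from marker lists, with a score of at least 2 and 3 own markers at 20 CPM or more. Clusters that met this for no other list were called tumour-like on a tumour score above 0, which ran from 0.73 to 0.98, and 3 tumour markers at 20 CPM. A state needed 2 of its markers among the 10 leading genes and a score above 0, or a score of at least 2. Clusters led by mitochondrial genes or by predicted genes without a proper name (Gm and a number), or with over 30% doublets, stayed unnamed. This left 2.50% and 3.25% of cells in the Sema4d-shRNA libraries and 16.0% and 9.48% in the NC libraries. Counts summed per library were tested by the robust quasi-likelihood method of edgeR 4.0.16 with filterByExpr and TMM (limma 3.58.1 under R 4.3.3, DESeq2 1.42.0 as an alternative), with Benjamini-Hochberg adjustment over all genes and calls under 0.05, in classes with 10 and states with 50 cells in every library. The script was tested on simulated data. The smallest exact permutation p of 2 against 2 libraries is 0.333, so none was used. Members and lists were chosen with earlier results of these data known. Named besides the members are Sema4d, the called genes of each list, some but not all of its most abundant genes, and the 3 genes most like each member. Other genes appear as markers or leading genes of clusters or as examples of a list.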

Additional observations from a re-analysis of the deposited data

Results flagged for a closer look

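For Cxcl2 the effect of the Sema4d shRNA in macrophage or monocyte-like cells exceeded that in tumour-like cells by 1.46 on the log2 scale (edgeR interaction test, adjusted p = 9.32e-06). In macrophage or monocyte-like cells Cxcl2 was 250.5 and 262 CPM in the Sema4d-shRNA libraries and 228 and 172 CPM in the NC libraries, while in tumour-like cells it was 2.33 and 1.76 CPM in the Sema4d-shRNA libraries and 5.03 and 3.56 CPM in the NC libraries. Neither effect was called within its own class by edgeR. In NC 1 a single tumour-like cell held 62 Cxcl2 UMIs, and its part in the difference was not tested. Macrophage markers in tumour-like cells, at 0.554% and 0.608% of their own level against 1.21% and 1.36%, moved with the tumour-like values, and their part in the difference was not tested.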

How the results depend on the processing

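With 2 libraries a group, counts of called genes moved widely. For tumour-like cells 69 genes were called, against 231 with DESeq2, 727 without the filter on low counts, 107 without the secretory state (chosen after seeing the data) and 28 to 573 without 1 library. For macrophage or monocyte-like cells 29 became 62 with DESeq2, 402 without the filter, 130 with the replicate block and 19 to 318 without 1 library. For T and NK-like cells 27 became 97 without the filter, 45 with the block and 58 to 122 without 1 library. For neutrophil-like cells 0 became 5 with DESeq2, 23 without the filter, 26 with the block, 4 at resolution 2 and 0 to 37 without 1 library. For dendritic-like cells 3 became 14 with DESeq2, 28 without the filter, 1 with the block, 6 with doublets kept, 12 at resolution 2 and 23 to 68 without 1 library. For fibroblast-like cells 5 became 30 without the filter, 39 with the block and 3 to 51, and for endothelial-like cells 4 became 2 with DESeq2, 64 without the filter, 44 with the block and 23 to 168 without 1 library. Over all cells 207 became 1426 with DESeq2, 672 without TMM factors, 1176 without the filter, 550 with the block and 2 to 1241. Without 1 library, the states gave 23 to 460 (cycling, 72), 2 to 41 (stress or hypoxia, 19), 59 to 92 (Slurp1 and Ly6, 17), 7 to 169 (Ankrd1 and keratin, 37) and 25 to 91 (immediate early, 58), and the interaction 150 to 744 (394). The replicate block gave 200 in the interferon state (59), 53 in the stress or hypoxia state and 94 in the immediate early state. Replicate numbers did not pair the libraries, with correlations of same-numbered deviations of -0.00599 in tumour-like and 0.0761 in macrophage or monocyte-like cells.

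Members called became 1 with DESeq2 in tumour-like and dendritic-like cells and 2 over all cells, and without the filter 1, 1 and 2 and, in macrophage or monocyte-like cells, 2. With the block they became 1 in macrophage or monocyte-like cells (Cxcl1, log2 change 0.90, adjusted p = 0.0247) and 2 in cycling cells, and it changed the number of members called in no other class or state. Without 1 library they ran from 0 to 2 in tumour-like and macrophage or monocyte-like cells, 0 to 1 in neutrophil-like and endothelial-like cells and in the secretory, Slurp1 and Ly6 and immediate early states, 1 to 1 in dendritic-like cells (Cxcl2), 0 to 3 over all cells and in cycling cells, and 1 to 2 for the interaction. The log2 change of Cxcl1 in tumour-like cells ran from 0.29 to 0.99 without 1 library, with adjusted p up to 0.891, and was called only without Sema4d-shRNA 2. Cxcl2 and Cxcr4 over all cells turned to 0.19 and 0.19 with the same mix of classes, chosen after seeing the data, and the Cxcl1 interaction ran from -0.15 without Sema4d-shRNA 2 to 0.66 without Sema4d-shRNA 1. The cause was not tested beyond the weighting itself. With the same mix of macrophage clusters, also chosen after seeing the data, Cxcl2 and Cxcr4 in macrophage or monocyte-like cells moved to 0.18 and 0.05. Over all settings for a named log2 change, 159 kept direction and side of the threshold, 25 came to pass it, 7 no longer passed it, 3 weighted values moved by more than the standard error and 3 turned in direction.

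Depth limits the shares of cells with a UMI. Thinned to 1000 UMIs a cell, Cxcl1 was seen in 7.82% of tumour-like cells in Sema4d-shRNA and 5.61% in NC libraries on average, against 30.5% and 23.9% unthinned. Cxcl12 gave 7.28% and 7.59% against 42.2% and 42.0%, Cxcl2 in macrophage or monocyte-like cells 14.5% and 11.9% against 26.4% and 24.3%, and Cxcr4 there 3.32% and 2.56% against 11.6% and 9.66%. The log2 change in the share of neutrophil-like cells ran from -1.83 to -0.53 without 1 library.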
